A study of Mus musculus with 6 samples.

Results

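The genes described here are 9 genes of the poly(ADP-ribose) polymerase (PARP) family, Parp1, Parp3, Parp8, Parp9, Parp10, Parp11, Parp12, Parp14 and Tiparp, together with Dtx3l, which encodes the partner of PARP9. They are 10 of the 36528 gene IDs listed in the deposited tables and were found by Entrez ID. The members were selected on family membership and, with earlier results in view, on their levels and fold changes in this same comparison of IRF2_KO with Parental, so their own differences between the groups are given as a description and no p-value is printed for them. RNA was sequenced from HOXB-8 cells, a line of mouse bone marrow origin in which a homeobox factor keeps myeloid progenitors dividing, and the extraction notes also name iMACs. The 3 libraries labelled IRF2_KO carry a guide RNA against Irf2, which encodes an interferon regulatory factor, and the 3 labelled Parental are Irf2 wild type with a control guide named Luc. All 6 libraries share the HOXB-8 background, no stimulus is named in the labels, and 1 guide (gRNA2) stands for the knockout. Separate cultures or clones behind the replicates are not mentioned in the labels, so any p-value printed reflects the spread among replicate libraries only, and that spread may be technical.

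PARP enzymes move ADP-ribose from NAD onto proteins or nucleic acids. PARP1 builds long chains at DNA breaks, whereas most of the other members attach single units. PARP9 binds the ubiquitin ligase DTX3L, and in mouse and human cells the pair takes part in DNA repair and in interferon signalling. PARP9, PARP10, PARP12 and PARP14 belong to the group whose transcripts interferon is known to raise, and viral macrodomains remove the marks that such enzymes place.

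The sequences just upstream of the genes were looked at first, because the interferon, STAT and aryl hydrocarbon receptor factors linked to this family bind short DNA words. RefSeq promoter windows (GRCm38.p6, 250 bases before to 50 after a gene's start) were matched for 7 of the 10 genes, with 8 windows since Parp11 has 2. Parp9, Parp10 and Parp14 had no entry. The 4 windows below, written 5′ to 3′ on the gene's strand, set the one member that holds the interferon and STAT letters (Parp11) and another PARP gene with interferon letters (Parp4) beside 2 members that were higher in IRF2_KO and hold neither (Dtx3l and Parp12). Capitals mark GAAANNGAA, the core of the interferon-stimulated response element, or TTCNNNGAA, the core of a STAT site, on either strand. On the other strand the first reads TTCNNTTTC and the second reads the same.
Parp11 (chr6:127446590-127446889, plus strand): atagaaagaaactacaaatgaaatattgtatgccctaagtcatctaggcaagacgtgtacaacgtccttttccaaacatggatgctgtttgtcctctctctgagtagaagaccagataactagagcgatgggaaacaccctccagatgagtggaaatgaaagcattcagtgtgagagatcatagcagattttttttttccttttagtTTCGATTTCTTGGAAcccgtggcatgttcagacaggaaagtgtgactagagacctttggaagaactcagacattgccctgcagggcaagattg
Parp4 (chr14:56575369-56575668, plus strand): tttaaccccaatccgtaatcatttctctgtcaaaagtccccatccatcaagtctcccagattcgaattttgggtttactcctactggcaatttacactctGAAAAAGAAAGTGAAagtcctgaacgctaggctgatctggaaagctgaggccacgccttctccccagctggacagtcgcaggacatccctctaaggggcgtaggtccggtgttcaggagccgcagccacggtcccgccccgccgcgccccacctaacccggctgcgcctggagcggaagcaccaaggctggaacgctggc
Dtx3l (chr16:35938978-35939277, minus strand): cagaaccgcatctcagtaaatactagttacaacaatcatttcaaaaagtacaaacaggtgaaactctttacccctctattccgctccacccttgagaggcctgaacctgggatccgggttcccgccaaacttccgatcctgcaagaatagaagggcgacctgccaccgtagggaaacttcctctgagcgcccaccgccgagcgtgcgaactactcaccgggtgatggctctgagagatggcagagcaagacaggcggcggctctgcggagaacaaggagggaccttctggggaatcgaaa
Parp12 (chr6:39118300-39118599, minus strand): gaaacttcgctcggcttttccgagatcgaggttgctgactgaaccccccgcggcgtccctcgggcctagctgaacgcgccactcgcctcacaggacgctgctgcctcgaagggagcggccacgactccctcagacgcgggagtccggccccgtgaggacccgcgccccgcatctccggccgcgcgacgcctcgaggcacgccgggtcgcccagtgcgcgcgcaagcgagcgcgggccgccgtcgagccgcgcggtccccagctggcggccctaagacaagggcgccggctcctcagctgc
In Parp11 the interferon letters TTCGATTTC began 43 bases before the start and ran into the STAT letters TTCTTGGAA, which began 37 bases before it. In Parp4 GAAAAAGAA and GAAAGTGAA overlapped and began 150 and 144 bases before the start. GAAANNGAA occurred in 1 of the 7 members with a window (1 of their 8 windows). Of the 6 other PARP genes with a window 2 held it (Parp4 and Tnks2). Parp4 was higher in IRF2_KO than in Parental (log2 fold change 0.60). Tnks2, whose window is not printed, differed little (0.06). GAAANNGAA was in 8.56% of all 32851 windows and in 7.17% of the 12593 windows of tested genes. TTCNNNGAA occurred in the same 1 of 7 members (1 of 8 windows), in 1 of 6 other PARP genes (Parp16) and in 8.30% of all windows. GCGTG, the core letters bound by the aryl hydrocarbon receptor (CACGC on the other strand), occurred in all 7 members with a window (7 of their 8 windows), in 4 of 6 other PARP genes, in 49.5% of the windows of tested genes and in 32.4% of all windows. In Tiparp, whose transcript that receptor is known to raise, it lay 170 bases before the start. A match of letters is not a bound site, and a window without them says only that they are not in it.

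The total count was 29070160 to 34051219 in IRF2_KO libraries and 33422590 to 39925038 in Parental libraries. Irf2 itself stood at 40.3, 37.0 and 40.1 CPM in IRF2_KO and at 41.1, 42.4 and 41.1 CPM in Parental (log2 fold change -0.08, SE 0.05, edgeR adjusted p = 0.209). Because editing can disable a protein while its transcript persists, the Irf2 level is no check of the labels. CPM is the count corrected for library size with TMM factors. Of 13353 genes tested with edgeR's quasi-likelihood test, 47.2% passed an adjusted p under 0.05, with 23.6% higher and 23.6% lower in IRF2_KO, and 7.05% passed with a change of 2-fold or more. The groups' CPM ranges did not overlap in 54.0% of genes. Markers of other cells and of differentiation also differed. Of the 12 macrophage markers 8 could be tested, 7 were higher and none lower, and their summed level was 657 to 677 CPM in IRF2_KO and 313 to 323 CPM in Parental. Lyz2 made up most of that sum, with a mean of 480 CPM in IRF2_KO and 193 CPM in Parental. C1qb was at 0 in every library, and no library had more than 1 read of C1qa or C1qc. Cd163, which was not tested, was at 0 in IRF2_KO and had 11, 2 and 10 reads in Parental. Neutrophil and granule markers had 2 of 10 higher (Ltf and Ctsg) and 3 lower (Elane, Mpo and Camp). They summed to 9439 to 10935 CPM in IRF2_KO and 11384 to 12400 CPM in Parental. Mean levels in IRF2_KO and Parental were 924 and 2989 CPM for Elane and 638 and 918 CPM for Mpo. The most abundant markers were not lower, with 4237 and 4007 CPM for Prtn3 (not called) and 4195 and 3829 CPM for Ctsg. The groups overlapped for Ctsg, and its call failed under 6 of 13 alternatives. Lymphocyte markers summed to at most 0.119 CPM in IRF2_KO and 0.126 CPM in Parental, with Cd3e, Ms4a1 and Ncr1 at 0 in every library. Of 6 tested genes listed as myeloid progenitor markers 2 were higher (Itgam and Ptprc) and 2 lower (Kit and Myb). Ptprc differed little (log2 fold change 0.12), its groups overlapped, and its call failed under 7 of 13 alternatives. Kit, the stem cell factor receptor, stood at 0.827 ± 0.181 CPM in IRF2_KO and 8.04 ± 0.145 CPM in Parental (log2 fold change -3.26), Itgam was higher (log2 fold change 0.93) and Myb lower (-0.44), and Hoxb8 stood at 135 ± 8.95 CPM in IRF2_KO and 127 ± 2.08 CPM in Parental (SD, n = 3). In bulk RNA fewer cells of a type and less RNA per cell cannot be told apart, and the part of these marker differences in the values that follow was not tested.

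All 10 genes passed the filter on low counts and were fitted. Parp10, Parp12 and Dtx3l were past the threshold and higher in IRF2_KO, Parp14 was past it and lower, and the other 6 did not pass. That is 4 of 10 beside 47.2% of all genes, and the groups did not overlap for 6 of 10 beside 54.0%. Parp10 and Parp14 were the members past the threshold with a change of 2-fold or more, beside 7.05% of all genes. Since the comparison was in view when the set was made, nothing is read from these counts. The median log2 fold change of the 10 genes was 0.02, and over all tested genes it was -0.01.

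**Figure D1:**
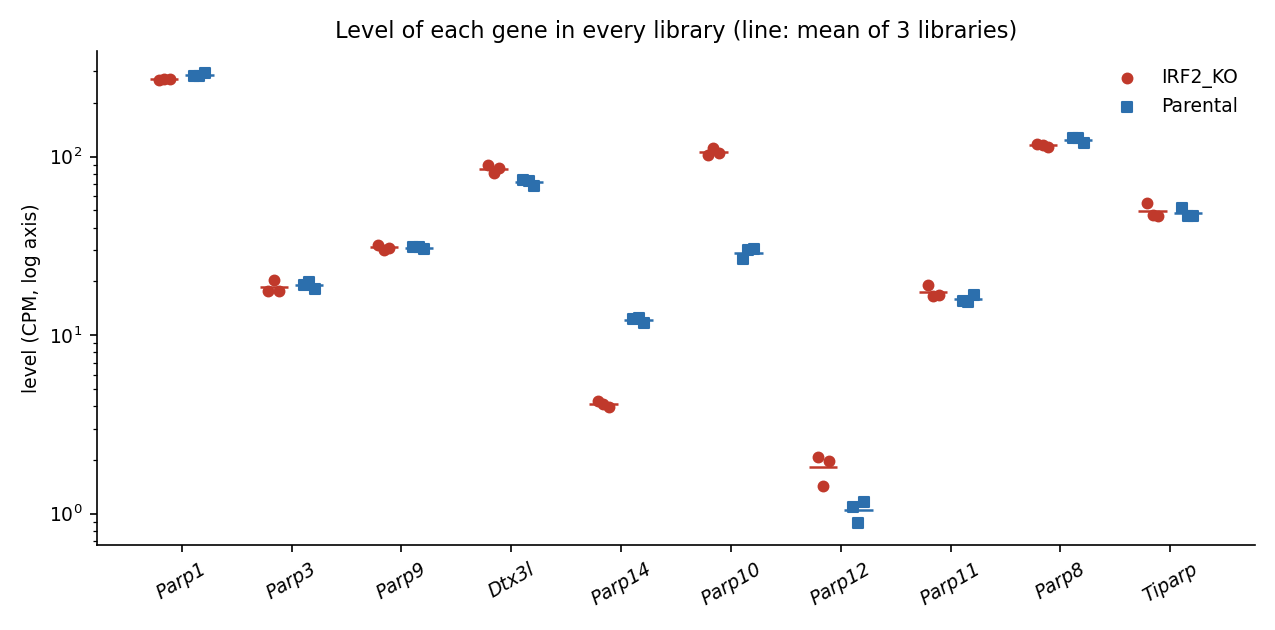
Level of the 10 genes in each library in CPM on a log axis, with IRF2_KO as red circles left of Parental as blue squares and a line at the mean of 3 libraries. The groups lie far apart for Parp10 (102 to 112 CPM in IRF2_KO and 26.6 to 30.2 CPM in Parental) and, the other way round, for Parp14 (3.98 to 4.30 CPM in IRF2_KO and 11.7 to 12.4 CPM in Parental).

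Among the enzymes that attach single ADP-ribose units, Parp10 differed most. PARP10, first found as a partner of MYC, modifies signalling proteins and acts in DNA damage tolerance. Parp10 (Entrez gene 671535, chr15:76232995-76243440, minus strand) had 102, 112 and 105 CPM in the IRF2_KO libraries, against 26.6, 30.1 and 30.2 CPM in the Parental libraries. Every IRF2_KO library was above every Parental library, and the means were 106 ± 4.93 CPM in IRF2_KO and 29.0 ± 2.09 CPM in Parental (SD, n = 3 each). The log2 fold change was 1.88 (SE 0.06), or 3.67-fold higher in IRF2_KO.

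Parp14 went the opposite way. PARP14 carries several macrodomains and was described in mouse B cells as a coactivator of STAT6, the factor downstream of interleukin-4. Parp14 (Entrez gene 547253, chr16:35831892-35871518, minus strand) had 4.30, 4.11 and 3.98 CPM in IRF2_KO, against 12.3, 12.4 and 11.7 CPM in Parental. All IRF2_KO libraries were below all Parental libraries, with 118 to 134 reads in IRF2_KO and 419 to 486 reads in Parental. The log2 fold change was -1.55 (SE 0.09), and the level in Parental was 2.93 times that in IRF2_KO.

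Parp12 was scarce in both groups. PARP12 has zinc fingers that bind RNA and restricts the growth of several RNA viruses. Parp12 (Entrez gene 243771, chr6:39086412-39118349, minus strand) had 2.08, 1.43 and 1.96 CPM in IRF2_KO, against 1.09, 0.890 and 1.17 CPM in Parental. These values rest on 62, 41 and 66 reads in IRF2_KO and 43, 30 and 47 reads in Parental. The groups did not overlap, but the lowest IRF2_KO library lay closer to the highest Parental library than to the other IRF2_KO libraries. The log2 fold change was 0.79 with the widest standard error of the 10 genes (0.20), and the spread was 19.0% of the mean in IRF2_KO and 13.6% in Parental.

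Parp11, Parp8 and Tiparp did not pass the threshold. PARP11 takes part in nuclear envelope shape in mouse sperm and limits interferon signalling through the interferon receptor. The Parp11 window printed above holds the interferon and STAT letters, and the other window of that gene holds neither. Parp11 (Entrez gene 101187, chr6:127446830-127514233, plus strand) had 19.2, 16.6 and 16.9 CPM in IRF2_KO and 15.6, 15.4 and 16.8 CPM in Parental. The ranges overlapped, with 1 IRF2_KO library well above the rest (log2 fold change 0.14, SE 0.07). Parp8 (Entrez gene 52552, chr13:116850842-117026019, minus strand) had 118, 116 and 113 CPM in IRF2_KO and 127, 127 and 119 CPM in Parental. Its groups did not overlap, but the difference was small (log2 fold change -0.11, SE 0.04). TIPARP is the transferase that dampens the aryl hydrocarbon receptor. Tiparp (Entrez gene 99929, chr3:65528447-65555518, plus strand) had 54.7, 47.0 and 46.7 CPM in IRF2_KO and 51.3, 46.6 and 46.4 CPM in Parental. Each group had 1 library above its other 2, and the ranges overlapped (log2 fold change 0.04, SE 0.06).

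PARP9 and DTX3L work as a pair, and their genes lie head to head on opposite strands of chromosome 16. Dtx3l (Entrez gene 209200, chr16:35926515-35939027, minus strand) had 90.4, 80.6 and 86.3 CPM in IRF2_KO, against 73.9, 73.4 and 68.2 CPM in Parental. All IRF2_KO libraries were above all Parental libraries, by 1.19-fold on the fitted scale (log2 fold change 0.26, SE 0.05). Parp9 (Entrez gene 80285, chr16:35938470-35972621, plus strand) had 32.0, 29.98 and 31.0 CPM in IRF2_KO and 31.1, 31.0 and 30.3 CPM in Parental. Its ranges overlapped and its log2 fold change was 0.01 (SE 0.05). Per unit length, the ratio of Dtx3l to Parp9 in the deposited RPKM values was 2.14, 2.03 and 2.11 in IRF2_KO libraries. In Parental libraries it was 1.801, 1.79 and 1.70, so the ratio was above the Parental range in each IRF2_KO library. This ratio too is formed from genes chosen with this comparison known, and it is given without a test. The part of the gene overlaps described below in this ratio was not tested.

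PARP1 and PARP3 respond to DNA breaks. PARP1 is the main source of poly(ADP-ribose) in most cells, and PARP3 adds single units at double-strand breaks. Parp1 (Entrez gene 11545, chr1:180568891-180600999, plus strand) had 269, 273 and 271 CPM in IRF2_KO and 283, 284 and 293 CPM in Parental. The IRF2_KO libraries were all lower, by a log2 fold change of -0.08 (SE 0.04) that did not pass the threshold. Parp3 (Entrez gene 235587, chr9:106470322-106476949, minus strand) had 17.7, 20.4 and 17.8 CPM in IRF2_KO and 19.2, 19.8 and 18.1 CPM in Parental. Its groups overlapped (log2 fold change -0.03, SE 0.07).

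Set beside each other per unit length, the family spanned a wide range, and the order of its genes differed between the groups. Among the 17 genes of the family and Dtx3l, Parp1 had the highest level in both groups, 69.2 ± 0.953 RPKM in IRF2_KO and 72.9 ± 1.33 RPKM in Parental (SD, n = 3 each). RPKM is the count scaled to the length of the gene model and to depth, deposited with a size-factor adjustment. Parp10 held rank 3 in IRF2_KO at 30.6 ± 1.57 RPKM, where its range overlapped that of Parp2, and rank 10 in Parental at 8.29 ± 0.581 RPKM, where its range overlapped that of Parp9. Dtx3l held rank 5 in IRF2_KO (16.2 ± 0.847 RPKM, overlapping Zc3hav1) and rank 6 in Parental (13.5 ± 0.613 RPKM, overlapping Tnks). Parp8 held rank 8 in IRF2_KO (13.95 ± 0.282 RPKM, overlapping Tnks) and rank 5 in Parental (14.9 ± 0.570 RPKM, overlapping Zc3hav1). Tiparp followed at 11.6 ± 1.01 RPKM in IRF2_KO and 11.3 ± 0.675 RPKM in Parental. Parp9 had 7.72 ± 0.218 RPKM in IRF2_KO and 7.63 ± 0.117 RPKM in Parental. Parp3 had 5.57 ± 0.489 RPKM in IRF2_KO and 5.67 ± 0.257 RPKM in Parental, and Parp11 had 3.97 ± 0.306 RPKM in IRF2_KO and 3.58 ± 0.165 RPKM in Parental.

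At the low end Parp12 and Parp14 changed places. Parp14 was the lowest gene in IRF2_KO at 0.391 ± 0.0140 RPKM and the lowest but one in Parental at 1.14 ± 0.0378 RPKM. Parp12 had 0.552 ± 0.103 RPKM in IRF2_KO and was the lowest in Parental at 0.316 ± 0.0431 RPKM. The RPKM ratio of Parp12 to Parp14 was 1.55, 1.11 and 1.58 in IRF2_KO libraries and 0.283, 0.229 and 0.320 in Parental libraries, above 1 in every IRF2_KO library and below 1 in every Parental library. For Parp10 over Parp14 the ratio was 72.4, 82.7 and 80.1 in IRF2_KO libraries and 6.59, 7.38 and 7.87 in Parental libraries. Both ratios are formed from genes that were chosen with this comparison known, and they are given without a test.

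**Figure D2:**
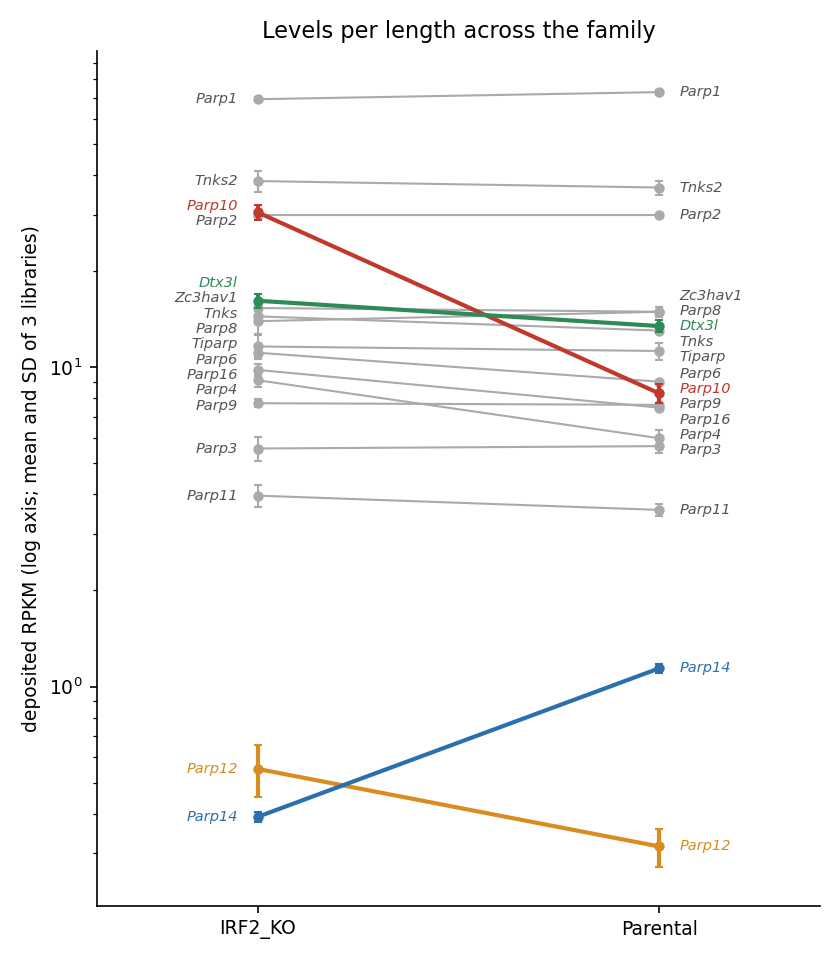
Mean deposited RPKM of the 17 genes in IRF2_KO (left) and Parental (right) on a log axis, with bars for the SD of 3 libraries; labels are spread to avoid overlap. The line of Parp10 crosses those of 7 other genes (30.6 RPKM in IRF2_KO and 8.29 RPKM in Parental), and the lines of Parp12 and Parp14 cross at the bottom.

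The 7 other PARP genes were all tested, and 3 of them, Parp4, Parp16 and Parp6, were higher in IRF2_KO while none was lower. Over all tested genes 23.6% were higher and 23.6% lower. The median log2 fold change of these 7 genes was 0.14. Parp4 encodes the transferase of the vault particle, a large ribonucleoprotein shell. Parp4 (chr14:56575619-56659798, plus strand) had 63.4, 56.97 and 61.6 CPM in IRF2_KO, against 38.0, 42.7 and 39.7 CPM in Parental, with no overlap (log2 fold change 0.60, SE 0.06, edgeR adjusted p = 1.32e-07). Parp16, a transferase anchored in the endoplasmic reticulum, stood at 28.4 ± 1.14 CPM in IRF2_KO and 21.8 ± 0.293 CPM in Parental (log2 fold change 0.38, SE 0.06, edgeR adjusted p = 3.48e-05). Parp6 stood at 32.0 ± 0.858 CPM in IRF2_KO and 26.1 ± 0.170 CPM in Parental (log2 fold change 0.29, SE 0.05, edgeR adjusted p = 0.000268).

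The remaining 4 did not pass the test. Parp2, which like PARP1 responds to DNA breaks, stood at 61.2 ± 2.26 CPM in IRF2_KO and 61.6 ± 0.314 CPM in Parental (log2 fold change -0.01, SE 0.05, edgeR adjusted p = 0.908). Zc3hav1 encodes the zinc finger antiviral protein, which lacks transferase activity, and stood at 128 ± 3.06 CPM in IRF2_KO and 125 ± 4.12 CPM in Parental (log2 fold change 0.03, SE 0.04, edgeR adjusted p = 0.596). The tankyrases regulate telomeres and Wnt signalling. Tnks2 stood at 256 ± 21.1 CPM in IRF2_KO and 246 ± 12.1 CPM in Parental (log2 fold change 0.06, SE 0.05, edgeR adjusted p = 0.394). Tnks stood at 95.3 ± 11.8 CPM in IRF2_KO and 86.5 ± 1.14 CPM in Parental (log2 fold change 0.14, SE 0.07, edgeR adjusted p = 0.0870). Without IRF2_KO library 2, Tnks did pass (log2 fold change 0.22, edgeR adjusted p = 0.00123). It also passed with no filter (log2 fold change 0.13, edgeR adjusted p = 0.0402).

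**Figure D3:**
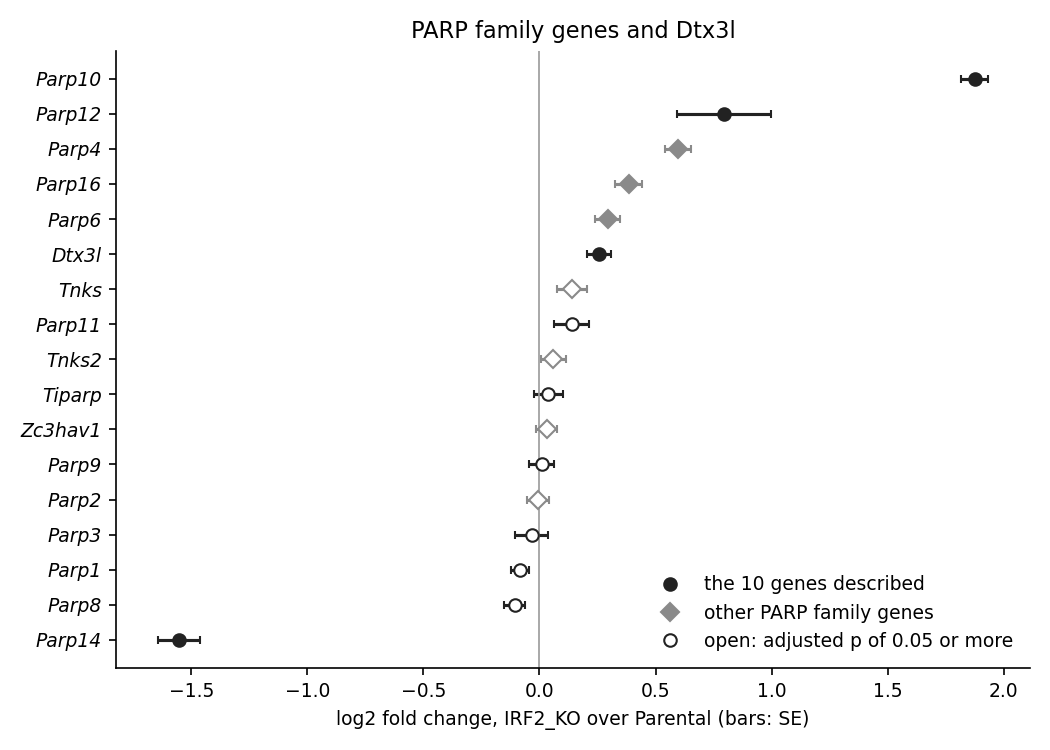
Log2 fold change of IRF2_KO over Parental for the 17 genes, with bars for the SE; black circles are the 10 genes described, grey diamonds the other PARP genes, and open symbols an adjusted p of 0.05 or more. Parp10 (1.88) and Parp14 (-1.55) lie at the ends, and most of the family lies close to 0.

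Parp14, Dtx3l and Parp9 lie within 141 kb of chromosome 16 (chr16:35831892-35972621), with 55.0 kb between Parp14 and Dtx3l, and the 3 genes had log2 fold changes of -1.55, 0.26 and 0.01. Neighbours within 100 kb were read from the fit of all genes, and 3 of 7 were past the threshold, beside 47.2% of all genes. Fam162a, a mitochondrial protein gene induced by low oxygen, stood at 361 ± 11.3 CPM in IRF2_KO and 230 ± 3.88 CPM in Parental (log2 fold change 0.65, SE 0.04, edgeR adjusted p = 4.48e-10). The long non-coding RNA gene Gm15564 stood at 53.8 ± 3.29 CPM in IRF2_KO and 45.0 ± 3.54 CPM in Parental (log2 fold change 0.26, SE 0.06, edgeR adjusted p = 0.00244). Slc49a4, on the Parp14 side, stood at 92.4 ± 2.50 CPM in IRF2_KO and 102 ± 1.58 CPM in Parental (log2 fold change -0.15, SE 0.04, edgeR adjusted p = 0.0113). That call was lost without IRF2_KO library 3 (edgeR adjusted p = 0.0849). Hspbap1, the tested gene next to Parp14, had a log2 fold change of -0.06 (SE 0.05, edgeR adjusted p = 0.349). Kpna1, an importin gene, had 0.11 (SE 0.05, edgeR adjusted p = 0.0549), Wdr5b had -0.18 (SE 0.16, edgeR adjusted p = 0.366) and Ccdc58 had 0.09 (SE 0.06, edgeR adjusted p = 0.238). Kpna1 passed under 5 of 13 alternatives, among them those without IRF2_KO library 2 (edgeR adjusted p = 0.0250) and without Parental library 1 (edgeR adjusted p = 0.0360). None of the 7 neighbours was lower by as much as Parp14.

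Some reads at these genes cannot be assigned with certainty. Whether strand was used in counting is not given in the sources used here. Parp9 and Dtx3l overlap by 558 bases on opposite strands. Gm15564 overlaps the far end of Parp9 by 5871 bases on the opposite strand and held 1550 to 1696 reads in IRF2_KO and 1396 to 1951 reads in Parental, more than the 860 to 1042 reads of Parp9 in IRF2_KO and 1046 to 1231 reads in Parental. Parp1, Parp11 and Tiparp also overlap other annotated genes.

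**Figure D4:**
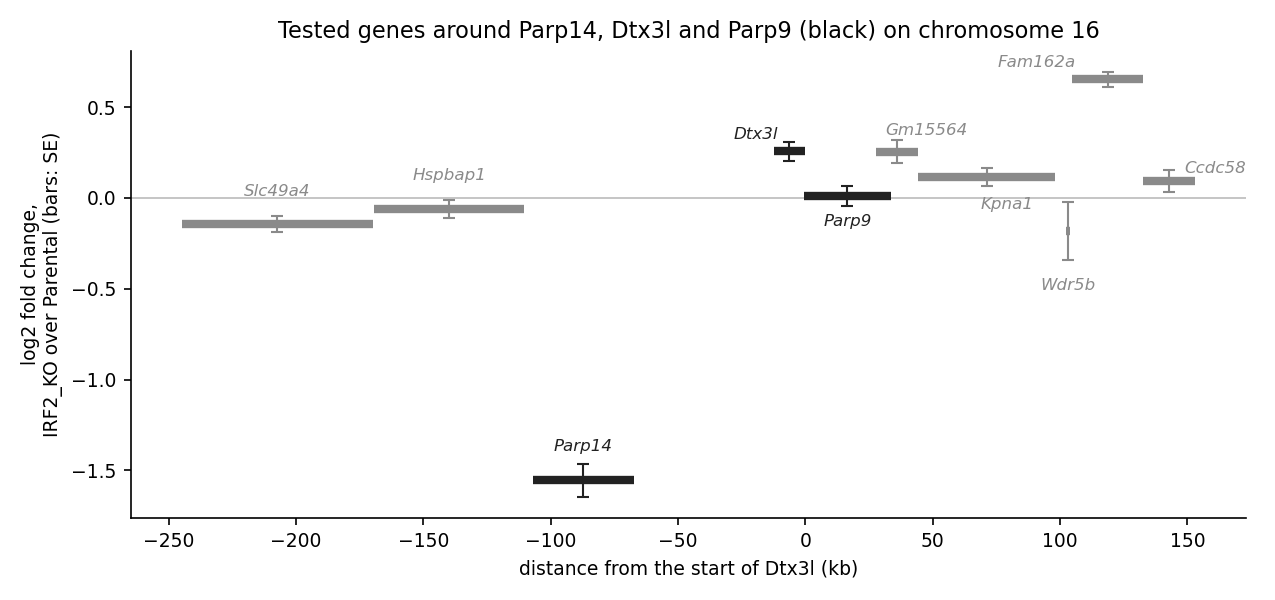
Log2 fold change of IRF2_KO over Parental (vertical, bars for the SE) against distance from the start of Dtx3l in kb (horizontal) for tested genes on chromosome 16, each drawn over its own length. Parp14 (-1.55) lies well below every gene drawn, while Dtx3l (0.26), Parp9 (0.01) and their neighbours lie between -0.18 and 0.65.

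The transcription factors tied to these proteins were read from a list of 6, all tested. Of these 5 were higher in IRF2_KO, beside 23.6% of all genes, and none was lower (median log2 fold change 0.45). This list, like the other lists described here, was chosen with earlier results of these data known. Counts set beside the shares of all genes are therefore descriptions and not tests of enrichment. STAT2 and IRF9 act together in the transcription of interferon-stimulated genes. Irf9 stood at 40.6 ± 0.785 CPM in IRF2_KO and 7.42 ± 0.265 CPM in Parental (log2 fold change 2.45, SE 0.06, edgeR adjusted p = 2.31e-15). Stat2 differed less, with 52.8 ± 1.34 CPM in IRF2_KO and 36.8 ± 0.280 CPM in Parental (log2 fold change 0.52, SE 0.05, edgeR adjusted p = 1.23e-07). Stat6, the partner described for PARP14, stood at 278 ± 1.73 CPM in IRF2_KO and 214 ± 3.97 CPM in Parental (log2 fold change 0.38, SE 0.04, edgeR adjusted p = 4.11e-07), while Parp14 itself was lower. Beside these values, 7 of 8 tested macrophage markers were higher too (sums of 657 to 677 CPM in IRF2_KO and 313 to 323 CPM in Parental). Lyz2 made up most of these sums. The part of the markers in the levels of the transcription factors was not tested.

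Genes for enzymes that remove ADP-ribose differed in both directions. Of these hydrolases and erasers 11 could be tested, with 2 higher, 3 lower and a median log2 fold change of -0.12. That is 5 of 11 called, beside 47.2% of all genes. Adprh, which frees arginine from ADP-ribose, stood at 73.3 ± 2.81 CPM in IRF2_KO and 93.8 ± 5.03 CPM in Parental (log2 fold change -0.36, SE 0.05, edgeR adjusted p = 1.64e-05). Nudt5, which cleaves free ADP-ribose, stood at 104 ± 0.547 CPM in IRF2_KO and 118 ± 2.52 CPM in Parental (log2 fold change -0.18, SE 0.04, edgeR adjusted p = 0.00219). Gdap2 and Nudt16 were higher (log2 fold changes 0.19 and 0.29, edgeR adjusted p = 0.00771 and 0.0143), and both calls were lost without Parental library 2 (edgeR adjusted p = 0.0503 and 0.0740). Among the other Deltex genes and ADP-ribose-directed ubiquitin ligases, 2 of 5 tested were higher, beside 23.6% of all genes, and none lower (median 0.03). These were Rnf114 (98.6 ± 3.41 CPM in IRF2_KO and 74.4 ± 2.86 CPM in Parental, log2 fold change 0.41, SE 0.05, edgeR adjusted p = 1.64e-06) and Dtx4, a ligase gene of the same family as Dtx3l. Dtx4 stood at 198 ± 4.69 CPM in IRF2_KO and 166 ± 3.85 CPM in Parental (log2 fold change 0.26, SE 0.04, edgeR adjusted p = 6.41e-05), and Dtx1 was at 0 in every library.

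Partners of PARP1 and PARP3 in repair had 3 of 13 higher, 2 lower and a median log2 fold change of -0.03. That is 5 of 13 called, beside 47.2% of all genes. Macroh2a1, a histone variant whose macrodomain binds ADP-ribose in one of its splice forms, stood at 888 ± 7.65 CPM in IRF2_KO and 1009 ± 11.8 CPM in Parental (log2 fold change -0.18, SE 0.04, edgeR adjusted p = 0.000590). Xrcc6, the Ku70 gene of end joining, had a log2 fold change of -0.21 (SE 0.05, edgeR adjusted p = 0.00100) and Xrcc4 had 0.32 (SE 0.07, edgeR adjusted p = 0.00114). The list thus held small differences in both directions beside a Parp1 level that differed by a log2 fold change of -0.08.

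NAD is the substrate of every PARP enzyme. Of 8 tested NAD synthesis genes 2 were higher and 1 lower (median log2 fold change 0.09). That is 3 of 8 called, beside 47.2% of all genes. Nampt, the rate-limiting enzyme of NAD salvage, stood at 260 ± 12.6 CPM in IRF2_KO and 199 ± 9.79 CPM in Parental (log2 fold change 0.38, SE 0.05, edgeR adjusted p = 3.65e-06). Nadk2, the mitochondrial NAD kinase, had a log2 fold change of 0.25 (SE 0.05, edgeR adjusted p = 0.000589). Nadk, the cytosolic kinase, had -0.11 (SE 0.04, edgeR adjusted p = 0.0356), a call that failed under 7 of 13 alternatives. Over all 13, passing ones included, its adjusted p (edgeR and other) was 0.00784 to 0.142. Among the other NAD-consuming enzymes 2 of 8 tested were higher and 2 lower (median 0.03), again beside 47.2% of all genes called. Bst1, a cell surface enzyme that makes cyclic ADP-ribose, had 9.61, 8.02 and 9.33 CPM in IRF2_KO and 2.62, 2.67 and 2.04 CPM in Parental, well apart (log2 fold change 1.88, SE 0.12, edgeR adjusted p = 8.36e-10). The deacetylase gene Sirt1 had a log2 fold change of -0.37 (SE 0.07, edgeR adjusted p = 0.000449) and Sirt2 had 0.25 (SE 0.05, edgeR adjusted p = 0.000898). For Sirt3 the value was -0.15 (SE 0.06, edgeR adjusted p = 0.0478), and the call failed under 8 of 13 alternatives. Over all 13, passing ones included, the adjusted p of Sirt3 (edgeR and other) was 0.0131 to 0.167. Its groups overlapped.

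The aryl hydrocarbon receptor pathway was read because it controls Tiparp in other settings. Of 5 tested genes 1 was higher and 2 were lower (median log2 fold change -0.39). That is 3 of 5 called, beside 47.2% of all genes. Ahr, the receptor, stood at 5.15 ± 0.279 CPM in IRF2_KO and 8.16 ± 0.194 CPM in Parental (log2 fold change -0.66, SE 0.09, edgeR adjusted p = 1.68e-05). Ahrr, its repressor, stood at 0.852 ± 0.136 CPM in IRF2_KO and 1.82 ± 0.181 CPM in Parental (log2 fold change -1.09, SE 0.20, edgeR adjusted p = 0.000241). Arnt, its dimer partner, stood at 102 ± 3.00 CPM in IRF2_KO and 75.6 ± 1.67 CPM in Parental (log2 fold change 0.44, SE 0.05, edgeR adjusted p = 3.60e-07). Cyp1a1 and Cyp1a2, the classic target genes, had at most 1 read in any library, and Tiparp differed by a log2 fold change of 0.04.

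**Figure D5:**
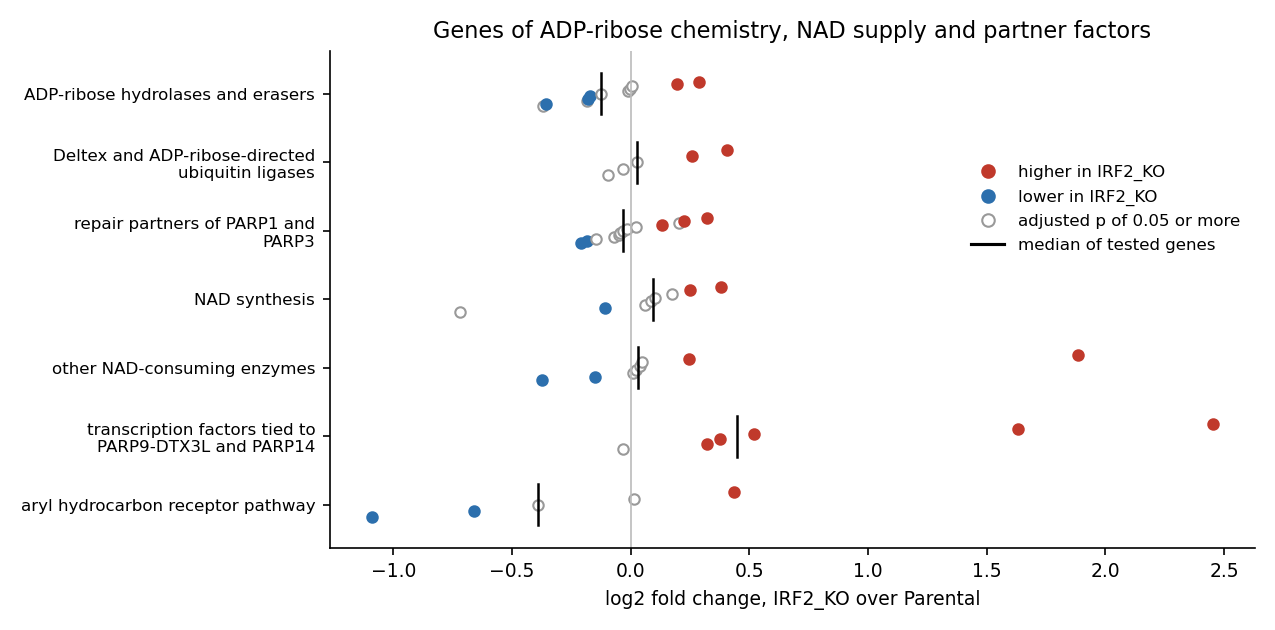
Log2 fold change of IRF2_KO over Parental for the tested genes of 7 lists around ADP-ribose chemistry, with red for higher, blue for lower, open grey for an adjusted p of 0.05 or more, and a black bar at each list's median. The transcription factor list lies highest (median 0.45, with Irf9 at 2.45), and most other genes lie near 0.

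Genes whose profile over the 6 libraries was most like that of Parp10 or Parp14 were found by Euclidean distance between log2 CPM values centred per gene. Nearest to Parp10 were Epas1 (distance 0.13, mean 6.23 CPM in IRF2_KO and 1.65 CPM in Parental), Gsap (0.14, with 6.27 CPM in IRF2_KO and 1.64 CPM in Parental) and Trim21 (0.14, with 19.5 CPM in IRF2_KO and 5.51 CPM in Parental). Epas1 encodes a hypoxia-inducible factor subunit and Trim21 an intracellular antibody receptor. Nearest to Parp14 were Nrp1 (distance 0.11, mean 7.92 CPM in IRF2_KO and 23.8 CPM in Parental), Ccdc85a (0.13, with 9.999 CPM in IRF2_KO and 31.0 CPM in Parental) and Tmsb15l (0.18, with 0.621 CPM in IRF2_KO and 2.03 CPM in Parental). Nrp1 encodes neuropilin, a surface receptor. These genes were picked for their likeness and carry no test.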

How the data were processed

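RNA sequencing libraries of 6 samples, 3 labelled IRF2_KO and 3 labelled Parental, were compared by their group labels. Per the submitters' processing notes the authors used GSNAP and build GRCm38, with versions and annotation not given in the sources used here. Per the labels' protocols a stranded total RNA kit was used, while the molecule label names polyadenylated RNA. The deposited counts are, per the file headers, uniquely aligned reads for each Entrez gene ID, and the deposited RPKM values are adjusted by a size factor. Over 10251 genes the latter differed from the counts by gene length and 1 factor per library. RPKM served to set genes side by side, and counts served every test.

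Symbols came from a RefSeq table of the same build for 31049 of 36528 IDs, and 123 of 124 list entries were matched. Genes were kept by filterByExpr (13353), scaled by TMM (factors 0.987 to 1.02) and tested in edgeR 4.0.16 (R 4.3.3) by its robust quasi-likelihood method, two-sided, at a threshold of 0.05 after Benjamini-Hochberg adjustment over all genes. SE values are log2 fold changes over the root of F. The procedure was tested on simulated data. In these libraries 3 counts correspond to 0.0751 to 0.103 CPM. The mean chi-square per gene between libraries of a group was 2.78 to 10.1, above the value of 1 for sampling noise. The libraries of a group thus differed by more than sampling noise. This does not show whether they came from separate cultures or from the same RNA prepared again.

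The members, the lists and the rule for named genes were chosen with earlier results of these data known. That rule names all members, Irf2, all other PARP genes, the called genes of each list with the lowest adjusted p (at most 4), all tested neighbours, and the 3 nearest profiles of the members with the largest change each way. Genes named only as markers, at 0 or as uncalled list members lie outside it, and a few that it does name are not reported here. Alternatives were RLE scaling, library size alone, DESeq2 1.42.0, limma-voom (3.58.1), no filter, 1 CPM in 3 libraries, an adjusted p under 0.01, each library left out, and a shorter motif.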

Additional observations from a re-analysis of the deposited data

How the results depend on the processing

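Over the 13 alternatives to the test, the log2 fold change was 1.82 to 1.91 for Parp10 and -1.58 to -1.53 for Parp14. It was 0.70 to 0.93 for Parp12 and 0.22 to 0.30 for Dtx3l. Each stayed on the same side of the threshold throughout. These members were chosen with this comparison known, and the alternatives refit the same libraries. The calls thus describe the effect of processing and are no further test of the differences. With library size alone Parp1 (-0.11) and Parp8 (-0.14) also passed, as did Parp8 without Parental library 3 (-0.14). Signs turned only where the value was near 0: Parp9 was -0.021 with library size alone and -0.0031 with no filter. With 1 library left out in turn, Parp9 was -0.0070 (without IRF2_KO 1) to 0.031, with a negative value also without Parental 3, Parp3 was -0.104 to 0.0085 (without IRF2_KO 1), Tiparp -0.031 (without IRF2_KO 1) to 0.087 and Parp2 -0.023 to 0.021 (without IRF2_KO 2). The cause was not tested. Genes called numbered 2468 to 3229 higher and 2299 to 3731 lower. The 2787 higher and 3731 lower found with library size alone compare with 3146 and 3150 under TMM, and no scaling moved the median of all genes by more than 0.1. Hydrolases and erasers called numbered 3 at an adjusted p under 0.01, where fewer pass by construction, and 3 (without Parental 2) to 6 with 1 library left out, against 5. The shorter motif GAAANNGA was in 2 members, Parp11 and Parp8, against 1. No paired analysis was possible because the labels give no replicate numbers. Depth limits Parp12 most, at 30 to 66 reads per library.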
